A study of Mus musculus with 12 samples.

Results

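Livers of wild-type (WT) mice from the mTR line were compared with livers of WT mice from the mTERT line, with 3 animals per group, out of 12 arrays in the series. The members were chosen by their sample labels alone, so no measured value entered the choice. All 12 animals were male C57BL/6J mice, and the labels give each an untreated liver, 1 array and a set number from 1 to 3. The mTERT WT and mTR WT mice carry no telomerase deletion and served as littermate controls of first-generation (G1) mice in which mTERT or mTR was knocked out (KO). Within a set the animals were matched for age and sex, but the age is not given in the sources used here. The WT groups thus differ in the line they came from and in anything that went with the line, such as litter, cage or dissection, and these cannot be told apart. Where a set number recurs in both lines, the labels do not say what the lines shared.

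Telomerase adds repeats to chromosome ends. Its reverse transcriptase is encoded by Tert and its RNA template by Terc, and adult mouse liver is a tissue with little cell division. The liver also handles fatty acids, which activate the nuclear receptor PPARA, detoxifies foreign compounds through cytochromes and glutathione transferases, and secretes acute phase proteins when cytokines signal inflammation. These programmes follow feeding, time of day and infection.

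Values are log2 intensities, in which a difference of 1 is a 2-fold difference, and every difference is given as mTR WT minus mTERT WT. The medians of the 6 WT arrays lay between 4.37 and 4.42, and their pairwise correlations between 0.978 and 0.994. The 95th percentile of olfactory receptor probes, which liver does not use, averaged 4.34 and serves as the background. The 12 measured hepatocyte markers, such as albumin, lay above it, and their mean was 12.32 to 12.57 in the 6 arrays. B and plasma cell markers were at or below background in all 6 WT arrays for 8 of 9 genes, and neutrophil markers for 13 of 15. Arrays of set 1 stood apart in both lines: small nucleolar RNA genes averaged 6.67 in mTERT WT 1 and 6.44 in mTR WT 1, whereas the remaining 4 WT arrays gave 5.19 to 5.32.

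No gene passed the test between the WT groups. Of 20197 probes tested, limma called 0 (0%) at an adjusted p under 0.05, and the smallest adjusted p was 1. At an unadjusted p under 0.05 there were 525 probes (2.6%), of which 292 (1.45%) were higher and 233 (1.15%) lower in mTR WT. With the set number as a replicate block, 0 were called and 1386 (6.86%) reached an unadjusted p under 0.05, with a smallest adjusted p of 0.435; over the 6 WT arrays alone the block gave 0 calls and 1204 probes (5.96%). The groups did not overlap, array by array, at 730 probes (3.61%) higher and 471 (2.33%) lower in mTR WT. Means differed by 2-fold or more at 6 probes (0.0297%) higher and 68 (0.337%) lower in mTR WT. The 95% interval of the difference stayed inside a 2-fold change at 96.5% of them, and the median moderated standard error (SE) was 0.14. Differences between single animals were larger than this, and much of what follows rests on 1 or 2 of the mTERT WT livers.

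A single array decided the count of calls. Without mTERT WT 2, limma called 42 probes, all lower in mTR WT. Of the 40 with a gene symbol, 19 belonged to the skeletal muscle list. That list is not complete, since muscle genes outside it, such as Mybpc1 and Myoz1, were also among the calls. With any other WT array left out, 0 were called.

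Both targeted genes were near or under the background in the WT livers. Tert read 4.13, 4.78 and 4.83 in mTERT WT and 4.58, 4.84 and 5.04 in mTR WT, so the groups overlapped and mTERT WT 1 lay under background. The difference was 0.24 (SE 0.183, 95% interval −0.16 to 0.65). Terc read 4.15, 4.08 and 4.10 in mTERT WT against 4.12, 4.24 and 4.22 in mTR WT, all under background, so its level was not detectable with this probe. Among 23 measured genes of telomerase and telomere capping, 14 lay above 0, with a median of 0.0107 and 0 at an unadjusted p under 0.05. The helicase gene Rtel1, needed to unwind telomere loops, differed by 0.15 (SE 0.104). Genes next to either locus were also compared, the first 20 on each side whose probe was tested. Of the 40 genes around Tert, 22 lay above 0 and 1 reached an unadjusted p under 0.05 by limma, which was Tppp at 0.63. Of the 40 around Terc, 17 lay above 0 and 2 reached it, H2bc21 at 0.40 and Acp6 at 0.23. Over all probes tested, 54.5% lay above 0 and 2.6% reached that p, so these counts are no result about either locus. The mTERT WT means of Tppp (3.84) and H2bc21 (4.18) lay under background, and their mTR WT means were 4.47 and 4.58. Nnt, a mitochondrial transhydrogenase gene that carries a deletion in C57BL/6J but not in C57BL/6N mice, read 7.37, 7.74 and 7.77 in mTERT WT and 7.68, 7.60 and 7.65 in mTR WT. Its difference of 0.02 (SE 0.135) was within the spread of both groups.

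The largest differences on the higher side were in genes of fatty acid breakdown. Under PPARA, Cyp4a enzymes hydroxylate the far end of fatty acids, thioesterases such as Acot1 release them from coenzyme A, and the peroxisomal thiolase Acaa1b cuts shortened chains. The 250 bases before the start of Acot1 and of Acaa1b are shown because both genes had WT groups that did not overlap and their promoters were in the RefSeq table of GRCm38.p6. Capitals mark each AGGNCA, a unit of the elements that nuclear receptors bind, found on either strand (TGGCCT is the reverse strand). Acot1 lies on the + strand at chr12:84009252-84009501 and holds 2 matches, and Acaa1b on the − strand at chr9:119157094-119157343 and holds 1.

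Acot1 promoter: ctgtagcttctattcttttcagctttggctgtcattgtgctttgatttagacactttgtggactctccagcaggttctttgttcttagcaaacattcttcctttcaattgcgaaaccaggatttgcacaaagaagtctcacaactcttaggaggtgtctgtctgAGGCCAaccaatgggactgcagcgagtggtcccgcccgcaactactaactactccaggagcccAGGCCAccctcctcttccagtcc

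Acaa1b promoter: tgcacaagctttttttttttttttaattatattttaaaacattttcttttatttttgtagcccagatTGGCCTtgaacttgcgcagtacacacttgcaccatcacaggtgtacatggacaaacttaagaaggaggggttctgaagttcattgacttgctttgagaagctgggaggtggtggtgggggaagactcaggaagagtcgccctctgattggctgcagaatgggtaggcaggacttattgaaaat

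The letters AGGNCA occur in 51.3% of 32851 promoters of this length, so their presence describes these windows only. The fuller PPARA element, AGGNCA repeated after 1 base, occurs in 0.338% of promoters. It was found in 1 of the 22 list members with a promoter, the fatty acid binding protein gene Fabp1. A member counted if any of its promoters matched, whereas 0.338% is a share of single promoters.

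Acot1 read 4.67, 5.41 and 5.26 in mTERT WT and 6.42, 5.89 and 6.06 in mTR WT. All mTR WT livers lay above all mTERT WT livers, and the means differed 2.02-fold (log2 1.01, SE 0.215, adjusted p of 1). Acaa1b read 9.35, 9.50 and 9.43 against 10.16, 9.75 and 10.06, again with no overlap (0.56, SE 0.129). Cyp4a14 spanned a wider range, at 5.68, 7.52 and 8.89 in mTERT WT and 10.29, 9.48 and 9.72 in mTR WT. Its means differed 5.52-fold (log2 2.46, SE 0.819; 1.62 to 3.23 with 1 WT array left out), with an SD of 1.61 in mTERT WT and 0.412 in mTR WT. Cyp4a31 was lowest in mTERT WT 1, at 5.62, and lay between 7.79 and 8.59 in the other 5 WT arrays. The 95% interval of its difference of 1.24 (SE 0.621) included 0. Cyp4a10 overlapped between the groups and differed by 1.03 (SE 0.419). Cyp4a and Acot genes lie in families of near-identical copies, so a probe may read more than 1 member. Among the WT livers, these 3 Cyp4a genes and Acot1 were lowest in mTERT WT 1, the liver with the highest acute phase genes.

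**Figure D1:**
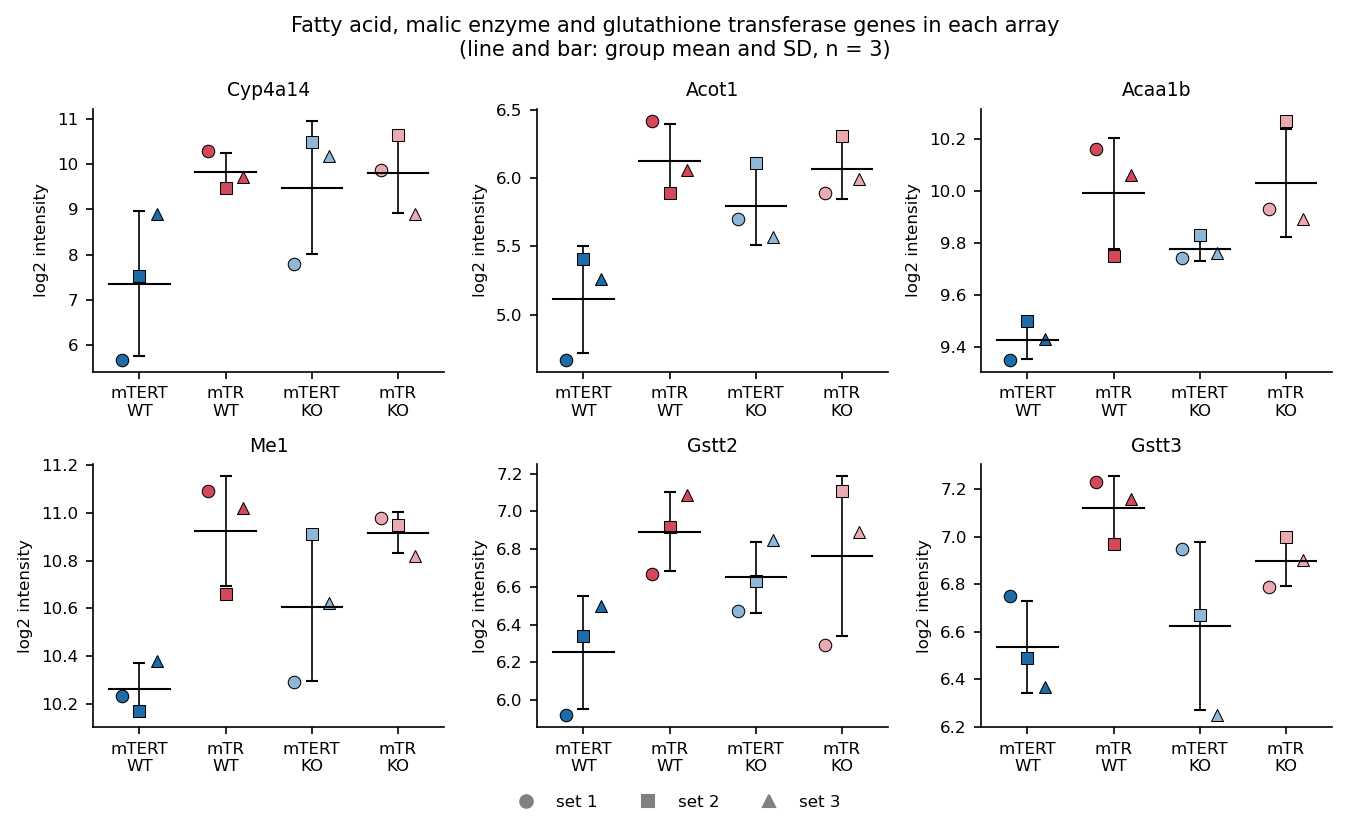
Log2 intensity of 6 genes in each of the 12 arrays, by group on the horizontal axis; marker shapes give the set number, lines the group mean and bars the SD over 3 arrays. In all 6 panels the 3 mTR WT points lie above the 3 mTERT WT points, with the KO groups drawn paler; Cyp4a14 runs from 5.68 in mTERT WT 1 to 10.29 in mTR WT 1.

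Over the whole list of PPARA targets and fatty acid oxidation, 24 of 29 measured members lay above 0, with a median of 0.128. Over all 19938 genes, 51.6% lay above 0 and the median was 0.00412. Groups did not overlap for 5 members, all higher in mTR WT (3.45% of all genes). By limma, 4 reached an unadjusted p under 0.05, all higher (1.45% of all probes tested). The list mean of mTERT WT 1 was 7.90, below the 8.32 of both other mTERT WT livers and the mTR WT range of 8.35 to 8.61. Without mTERT WT 1, 19 of 29 lay above 0 and the median was 0.0308, while leaving out mTERT WT 2 gave 0.188. In the KO livers, 16 of 29 lay above 0, with a median of 0.0174.

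Genes that make fat were mostly higher in mTR WT, and this held whichever WT liver was left out. Of 26 measured lipogenesis genes, 21 lay above 0 (median 0.185). Groups did not overlap for 4, all higher in mTR WT (3.45% of all genes). By limma, 3 reached an unadjusted p under 0.05, all higher (1.45% of all probes tested). Malic enzyme Me1, which supplies NADPH for fatty acid synthesis, read 10.23, 10.17 and 10.38 in mTERT WT and 11.09, 10.66 and 11.02 in mTR WT. Every mTR WT value exceeded every mTERT WT value, a 1.58-fold difference (0.66, SE 0.158), and a second Me1 probe gave 0.60 (SE 0.171). Gpam, which starts triglyceride assembly, differed by 0.34 (SE 0.145), and the desaturase gene Scd1 by 0.30 (SE 0.135). Thrsp, a gene that follows lipid synthesis, overlapped between groups at 0.76 (SE 0.390). The list mean was higher in mTR WT within each set number, by 0.313, 0.220 and 0.138. Leaving out 1 WT liver at a time gave between 19 and 26 of 26 above 0 and medians of 0.115 (mTR WT 1 left out) to 0.314 (mTR WT 2 left out). In the KO livers, 19 of 26 lay above 0 (median 0.150).

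Glutathione S-transferases, which conjugate glutathione to reactive compounds, gave 16 of 19 above 0 (median 0.195). Gstt3 read 6.75, 6.49 and 6.37 in mTERT WT and 7.23, 6.97 and 7.16 in mTR WT. Gstt2 read 5.92, 6.34 and 6.50 against 6.67, 6.92 and 7.09, and Gstt1 read 8.12, 8.06 and 8.15 against 8.53, 8.29 and 8.60. None of the 3 theta-class genes overlapped between the groups, and their differences were 0.59 (SE 0.166), 0.64 (SE 0.215) and 0.36 (SE 0.106). Gsto1 and Gstk1 did not overlap either, at 0.22 and 0.19. Over all genes, 3.45% had groups without overlap on the higher side. Gsta4 had the largest difference of the family, 0.74 (SE 0.324), with overlap. The medians were 0.160 to 0.230 with 1 WT liver left out. In the KO livers the median was 0.0326, with 14 of 19 above 0. Copies within a class are close in sequence, so single members are uncertain, and the list was chosen after its values were seen.

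Small differences of 1 sign ran through the respiratory chain, the protein complexes that carry electrons in mitochondria. All 43 measured members lay above 0, with a median of 0.117. Groups did not overlap for 7, all higher in mTR WT, against 3.45% of all genes. Leaving out 1 WT array at a time left 36 to 42 of 43 above 0, with medians of 0.0814 to 0.146. After quantile normalization 39 of 43 lay above 0. Ndufs4, a complex I subunit, read 8.72, 8.50 and 8.60 in mTERT WT and 8.90, 9.03 and 8.80 in mTR WT (0.30, SE 0.0986). The list mean was 9.26 to 9.33 in mTERT WT and 9.40 to 9.45 in mTR WT, without overlap, and it was higher by 0.103, 0.158 and 0.119 within the sets. With 3 arrays against 3, the smallest p an exact permutation test allows is 0.1, so no such test was run on list means. The 43 values come from the same 6 arrays and are not independent. In the KO livers, 35 of 43 lay above 0 (median 0.105). Cytosolic ribosomal proteins gave 51 of 55 above 0 (median 0.111). Without mTERT WT 2, 35 of 55 lay above 0 (median 0.0577), and without mTERT WT 1 the median was 0.188. The list mean of mTERT WT 1, at 8.95, was above all mTR WT values of 8.86 to 8.90. Cholesterol synthesis and uptake gave 19 of 20 above 0 (median 0.0857). Without mTR WT 3, 10 of 20 lay above 0 (median 0.00727). The median was 0.0561 without mTERT WT 1, 0.154 without mTERT WT 2 and 0.254 without mTR WT 1. Its list mean in mTR WT 1, at 8.85, was below all 3 mTERT WT values of 8.89 to 9.02.

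**Figure D2:**
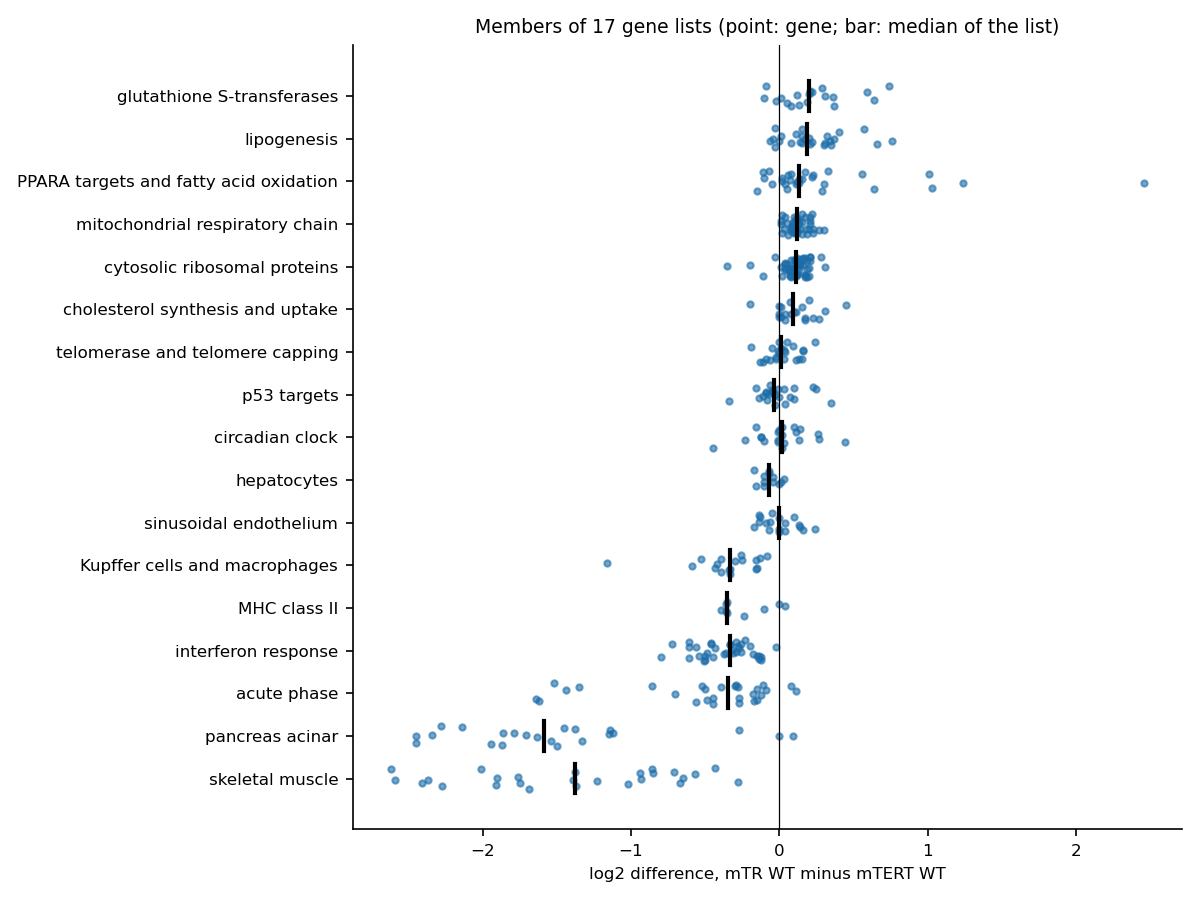
Log2 difference, mTR WT minus mTERT WT, of each measured member (points) of 17 gene lists, with the list median as a bar. The 43 respiratory chain genes lie in a narrow band above 0 around 0.117, and the muscle genes spread below 0 around a median of −1.37.

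Acute phase genes, whose secreted products follow interleukin signals in inflammation, were lower in mTR WT, and mTERT WT 1 carried most of this. Of 28 measured members, 26 lay below 0 (median −0.348). Groups did not overlap for 6 on the lower side (2.73% of all genes) and for 1 on the higher side (3.45% of all genes). By limma, 6 reached an unadjusted p under 0.05, all lower in mTR WT (1.15% of all probes tested). As a list mean, mTERT WT 1 gave 10.08, mTERT WT 2 gave 8.84, mTERT WT 3 gave 8.98, and the mTR WT livers lay between 8.64 and 8.87. Lcn2, an iron-binding protein of the acute response, read 9.36, 5.62 and 6.55 in mTERT WT against 5.84, 5.33 and 5.50. Serpina3n, a protease inhibitor, read 11.65, 11.09 and 11.06 against 10.81, 10.55 and 10.88, without overlap (−0.52, SE 0.160). Stat3, the transcription factor of this response, differed by −0.50 (SE 0.163) with overlap, and the inter-alpha-trypsin inhibitor chain Itih3 by −0.49 (SE 0.156). Fgl1, a fibrinogen-like liver protein, read 11.40, 10.67 and 10.83 against 9.97, 10.17 and 10.02, a 1.89-fold difference (−0.92, SE 0.226). Steap4, a metalloreductase, differed by −0.90 (SE 0.335), from 11.08 in mTERT WT 1 and at most 9.60 in every other WT liver. Without mTERT WT 1 the list median was −0.156 and 7 of 28 members lay above 0, while without mTERT WT 2 it was −0.532. Neutrophil markers, which also include Lcn2, had their highest list mean in the same liver, at 4.17, with 3.77 to 3.99 in the rest of the WT groups. These means lay under the background of 4.34, and of the 15 markers only Lcn2 had a WT group mean above it. The list mean is therefore no sign of neutrophils apart from Lcn2. S100a9 and Mpo were at or below background in all 6 WT livers. In the KO livers the median of the acute phase list was −0.0698.

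Interferon-response genes were lower in mTR WT through a single mTERT WT liver. All 36 measured members lay below 0 (median −0.327). Their mean reached 7.43 in mTERT WT 3 while the other 5 WT livers lay between 6.32 and 6.37. Without that array 15 of 36 lay above 0 and the median was −0.0314, while without mTERT WT 2 it was −0.545. The promoters of Irf1 and Psmb8, an interferon-induced transcription factor and a subunit of the immunoproteasome that trims peptides for class I presentation, are shown because both held a STAT site. Capitals mark TTCNNNGAA, which reads the same on both strands. Both lie on the + strand of GRCm38.p6, at chr11:53769764-53770013 (the first of 2 listed Irf1 promoters) and chr17:34197945-34198194. The second Irf1 promoter held 0 matches. These windows were picked for their match, so it describes them only. The share of interferon-response members with a STAT site was not counted, and neither gene was among those with the interferon element given below.

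Irf1 promoter: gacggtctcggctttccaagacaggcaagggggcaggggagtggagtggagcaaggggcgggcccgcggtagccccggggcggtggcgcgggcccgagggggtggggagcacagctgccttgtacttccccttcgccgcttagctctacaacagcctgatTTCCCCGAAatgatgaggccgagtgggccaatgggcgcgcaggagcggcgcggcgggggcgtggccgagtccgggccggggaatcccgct

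Psmb8 promoter: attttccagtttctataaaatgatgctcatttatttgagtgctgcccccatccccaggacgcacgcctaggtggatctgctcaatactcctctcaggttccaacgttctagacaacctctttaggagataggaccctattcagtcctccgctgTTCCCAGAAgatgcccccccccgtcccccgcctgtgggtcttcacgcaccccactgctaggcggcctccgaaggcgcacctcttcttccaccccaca

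A match to these letters occurs in 7.02% of 32851 promoters, and in 6 of the 24 acute phase members with a promoter. Here and in the next sentence a member counted if any of its promoters matched. Shares of members and shares of promoters are therefore unlike measures. The core of the interferon element, GAAA repeated after 2 bases and searched on both strands, occurs in 2.98% of all promoters and in 10 of the 26 interferon-response members with a promoter, among them Gbp3, Ifit1 and Rsad2. Irf1 read 6.12, 5.78 and 7.30 in mTERT WT and 6.31, 5.86 and 6.23 in mTR WT. Psmb8 read 6.05, 6.43 and 7.69 against 6.18, 6.29 and 6.16, and its partner Psmb9 read 6.48, 6.55 and 8.35 against 6.64, 6.52 and 6.40. The guanylate-binding protein gene Gbp3 reached 7.47 in mTERT WT 3, with the other 5 WT livers between 4.77 and 5.64. In each of these genes mTERT WT 3 stood above the other 5 WT livers. Mx2, an antiviral GTPase, had groups without overlap, at 4.96, 4.58 and 5.04 against 4.50, 4.29 and 4.45 (−0.45, SE 0.149).

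MHC class II genes, which present antigens on macrophages and B cells, had 7 of 9 members below 0 (median −0.345) and no member at an unadjusted p under 0.05. H2-Ab1 read 7.69, 8.29 and 9.85 in mTERT WT and 8.67, 8.50 and 7.62 in mTR WT. The list mean of mTERT WT 3 was 7.05, above a range of 5.86 to 6.38 for the remaining WT livers, and without it 7 of 9 lay above 0 (median 0.0881). Without mTR WT 3 the median was −0.0531.

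All 18 measured Kupffer cell and macrophage markers lay below 0 (median −0.327), and 5 had groups without overlap (2.73% of all genes on the lower side). By limma, 3 reached an unadjusted p under 0.05, all lower (1.15% of all probes tested). The list mean was 7.15, 6.86 and 7.37 in mTERT WT and 6.86, 6.81 and 6.64 in mTR WT, so that mTERT WT 2 touched the mTR range. Fcgr3, an IgG receptor, read 5.73, 5.49 and 5.67 against 5.09, 5.18 and 5.04, a 1.44-fold difference (−0.53, SE 0.124). Lyz2, the lysozyme of macrophages, read 9.09, 8.50 and 8.52 against 7.97, 8.19 and 8.19 (−0.59, SE 0.182). Marco, a scavenger receptor, read 5.18, 5.30 and 6.56 against 4.39, 4.96 and 4.21, a 2.24-fold difference (−1.16, SE 0.456). With 1 WT array left out, 15 to 18 of the 18 members stayed below 0, and the median ranged from −0.449 (mTERT WT 2 left out) to −0.184 (mTERT WT 3 left out). Without both mTERT WT 1 and 3, a setting chosen after seeing the data, the median was −0.103 and 7 of 18 lay above 0. In the KO livers 16 of 18 lay below 0 (median −0.276). In whole liver, fewer macrophages and less RNA per macrophage cannot be told apart. Markers of sinusoidal endothelium, the cells that line liver capillaries, were split, with 10 of 18 below 0 and a median of −0.00217.

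**Figure D3:**
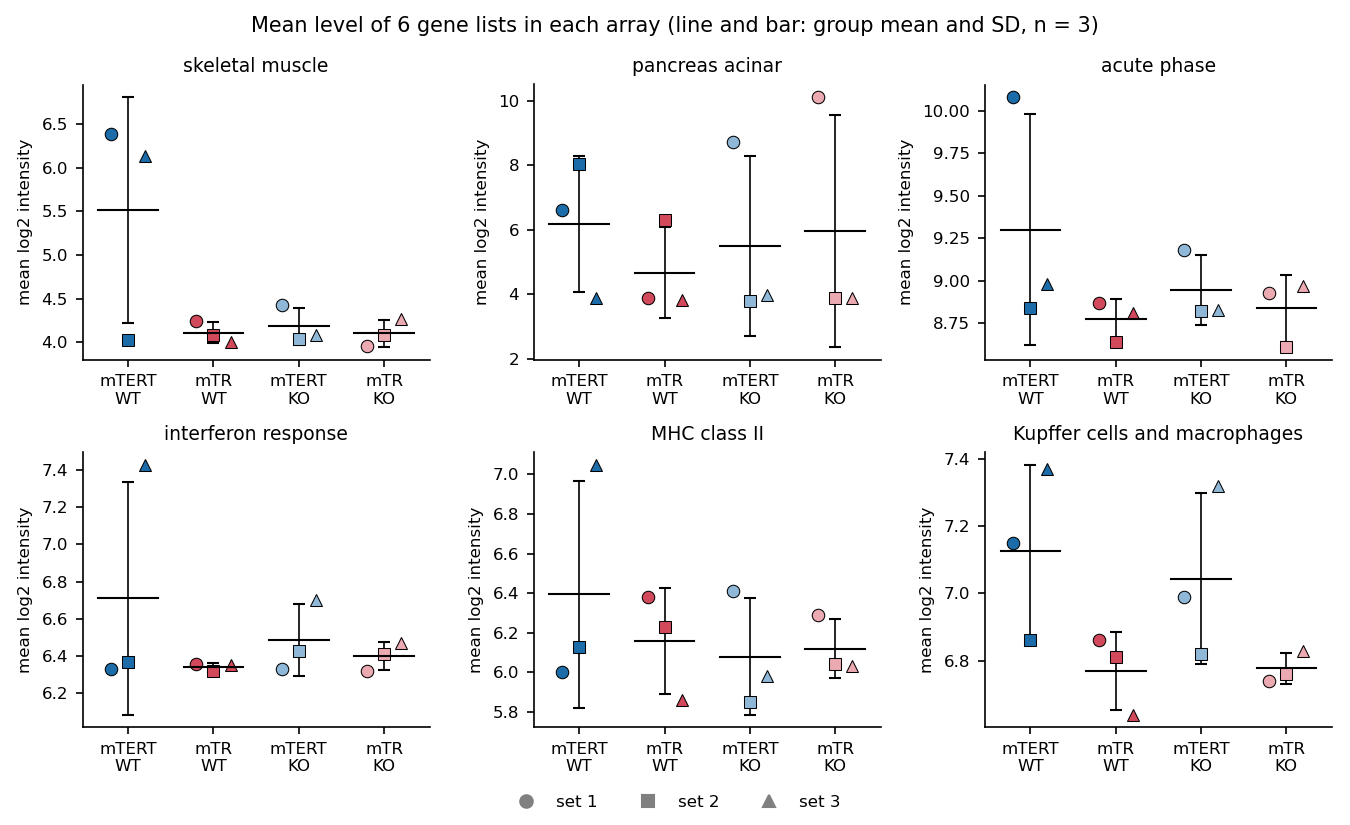
Mean log2 intensity of 6 gene lists in each of the 12 arrays, by group on the horizontal axis; marker shapes give the set number, lines the group mean and bars the SD over 3 arrays. The acute phase list is high in mTERT WT 1 (10.08), the interferon and MHC class II lists in mTERT WT 3 (7.43 and 7.05), and the muscle list in both (6.39 and 6.13).

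Transcripts of skeletal muscle, a tissue outside the liver, differed by more than those of any liver gene group above. All 26 measured members lay below 0, with a median of −1.37 (−0.892 without mTERT WT 1). By limma, 23 reached an unadjusted p under 0.05 (1.15% of all probes tested on the lower side). Groups did not overlap for 3 (2.73% of all genes). In this fit the 4 groups share 1 estimate of the spread per probe, although for Mybpc1 the SD was 1.05 in mTERT WT and 0.011 in mTR WT. By list mean, mTERT WT 1 (6.39) and mTERT WT 3 (6.13) stood above mTERT WT 2 (4.03) and above the mTR WT range of 4.01 to 4.24. Myh4, a fast myosin heavy chain, read 7.36, 3.73 and 5.54 in mTERT WT and 3.57, 3.60 and 3.73 in mTR WT (−1.91, SE 0.645). Mybpc1, a myosin-binding protein, read 5.36, 3.97 and 6.04 against 3.84 to 3.86 (−1.27, SE 0.371). The calcium-release channel gene Ryr1 read 4.69, 3.92 and 4.70 against 3.71 to 3.86, and the sarcomere gene Actn3 and the Z-disc gene Myoz1 differed by −1.02 and −0.75. Eef1a2, the elongation factor form of muscle and neurons, differed by −0.71 (SE 0.191). The mTR WT values of these muscle genes other than Eef1a2 lay under background, so the sizes are limited by it. Pancreas acinar genes, from an organ next to the liver, had 21 of 22 measured members below 0 (median −1.59) and none at an unadjusted p under 0.05. Leaving out mTERT WT 2 gave a median of −0.61, leaving out mTERT WT 3 one of −2.80, and leaving out mTR WT 2 one of −2.44. Their list mean was 6.62, 8.03 and 3.87 in mTERT WT and 3.87, 6.29 and 3.83 in mTR WT, and the carboxypeptidase gene Cpb1 had an SE of 2.64 on its difference of −2.45. Adipose tissue markers had 4 of 10 members above background on average, and Adipoq and Lep were at or below it in all 6. Muscle transcripts were high in the same 2 livers as the acute phase genes (mTERT WT 1) and the interferon genes (mTERT WT 3). With the muscle and pancreas list means as covariates, the acute phase median was 0.0843 and that of MHC class II 0.0971. That of the PPARA list was −0.0347 and that of the cholesterol list −0.137. The muscle and pancreas medians, at 0.0213 and 0.0114, also turned sign, but the covariates are the means of those lists, so values near 0 follow by construction. The lists given next kept their sign. The interferon-response median was −0.309, with 5 of 36 above 0, and the respiratory chain median 0.0948, with 33 of 43 above 0. Lipogenesis gave 0.219, glutathione S-transferases 0.275 and ribosomal proteins 0.217. The macrophage median was −0.167 in that fit, with 7 of 18 above 0. Since the muscle mean separates 2 of the 3 mTERT WT livers from all mTR WT livers, covariate and line cannot be told apart there.

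Outside the lists, the genes with the smallest p were small and even differences. Plscr2, a phospholipid scramblase, read 6.46, 6.54 and 6.38 in mTERT WT and 6.93, 6.92 and 7.13 in mTR WT, a 1.44-fold difference (0.53, SE 0.111). Spred2, an inhibitor of Ras-ERK signalling, read 5.77, 5.60 and 5.95 against 6.28, 6.53 and 6.29 (0.59, SE 0.129), and its second probe gave 0.39 (SE 0.163). Cisd1, an iron-sulfur protein of the mitochondrial surface, differed by 0.40 (SE 0.105), the sorting nexin gene Snx12 by 0.38 (SE 0.0917), Aamdc by 0.47 and Smim26 by 0.40. Anapc15, a subunit of the anaphase-promoting complex, differed by 0.40 with 1 probe and by −0.10 with the other. Among the largest, the mitochondrial synthetase gene Acss3 differed by 0.84 (SE 0.253), the succinate receptor gene Sucnr1 by 0.79 (SE 0.247), the water channel gene Aqp8 by 0.73 (SE 0.218) and Raet1d, a ligand of a natural killer receptor, by 0.66 (SE 0.212).

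On the lower side Gas5, a long noncoding RNA that hosts small nucleolar RNAs in its introns, read 6.24, 6.07 and 6.03 in mTERT WT and 5.59, 5.55 and 5.50 in mTR WT. The groups were separate, at a 1.48-fold difference (−0.57, SE 0.128), and its 3 other probes gave −0.14, −0.27 and −0.22. Enho, which encodes the secreted peptide adropin, read 6.29, 6.07 and 6.11 against 5.55, 5.88 and 5.56 (−0.50, SE 0.137). Slc16a6, a monocarboxylate transporter, read 5.30, 5.54 and 6.05 against 4.81, 4.79 and 4.92 (−0.79, SE 0.291). Pla2g7, a secreted phospholipase of macrophages, differed by −0.41 (SE 0.115), the forkhead factor gene Foxn2 by −0.38, D5Ertd579e by −0.34, and Klra2, a natural killer receptor gene with close copies, by −0.44. Each of these genes, like those above, had an adjusted p of 1 by limma.

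The KO livers of the same lines give a second difference between the lines. Their arrays entered the shared estimate of spread and the filter behind the choice of genes, they are littermates of the WT mice, and there the line and the deleted gene cannot be told apart. The comparison mTR KO minus mTERT KO called 0 of 20197 probes by limma (384, or 1.9%, at an unadjusted p under 0.05). Of the 33 genes named by rule for their p or size, 24 had the same sign in KO as in WT livers, 12 of 16 on the higher side and 12 of 17 on the lower side. Over all 20197 probes tested, 52.5% had the same sign. Since the genes were chosen for their WT difference, its size against the KO difference is not compared. Acot1 differed by 0.27 (SE 0.215) in KO, Cyp4a14 by 0.32 (SE 0.819), Me1 by 0.31 (SE 0.158), Enho by −0.36 (SE 0.137) and Marco by −0.94 (SE 0.456). Fcgr3 was of the opposite sign, at 0.13 (SE 0.124), as was Spred2, at −0.06 (SE 0.129). The difference between the KO and WT differences, tested as an interaction, was called at 0 of 20197 probes by limma (293, or 1.45%, at an unadjusted p under 0.05). Averaging the WT and KO array of each set to 6 litter means also gave 0 calls (240, or 1.19%, at an unadjusted p under 0.05).

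**Figure D4:**
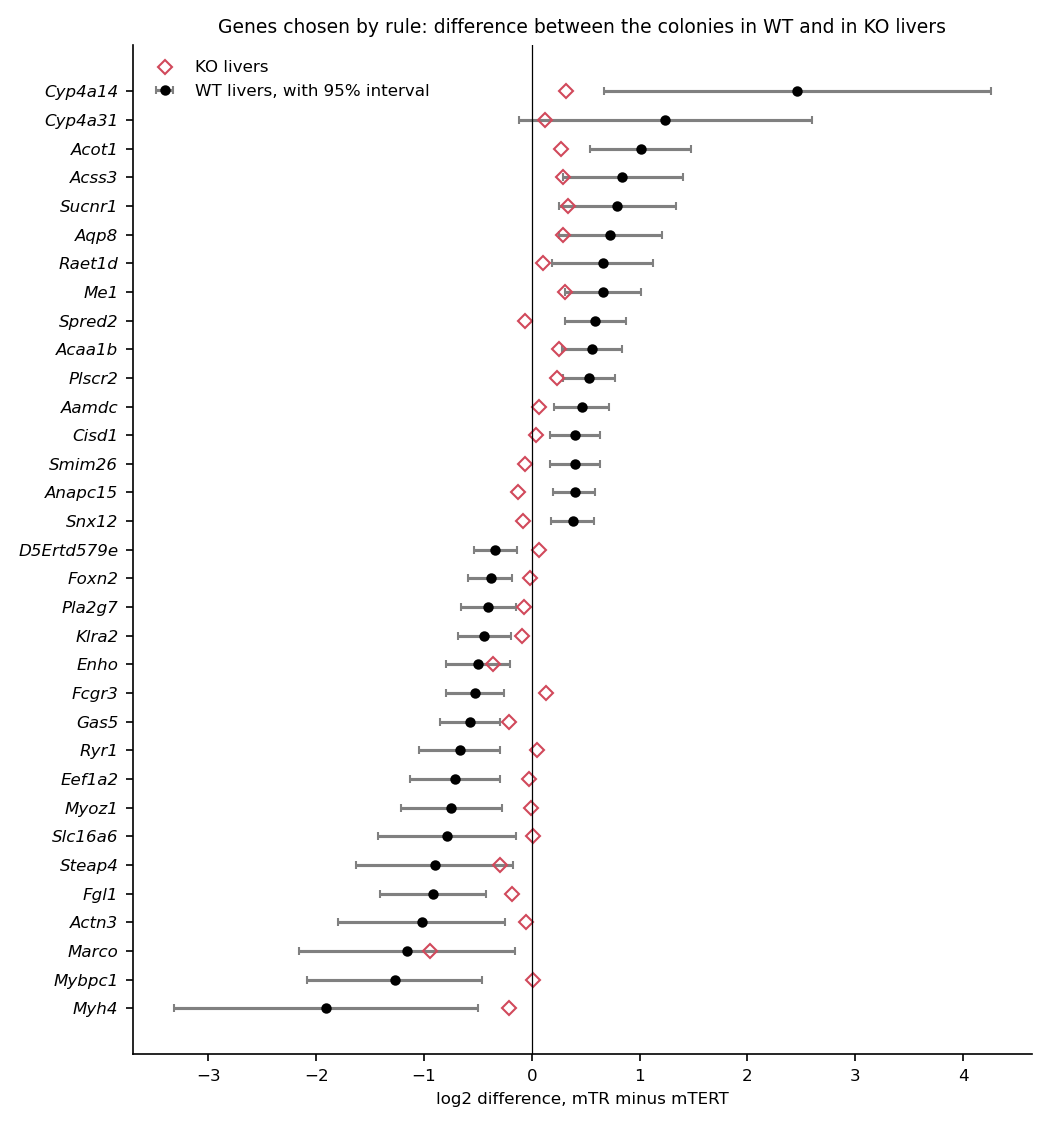
Log2 difference, mTR minus mTERT, for the 33 genes named by rule: black points give the WT livers with 95% intervals and open diamonds the KO livers. Of the 33 diamonds, 24 lie on the same side of 0 as the black point; the black points were chosen for their p or size, so the distance between the symbols is no comparison.

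Among lists tied to telomere loss, those of p53 targets and of DNA repair had medians near 0 between the WT groups. Most proliferation genes were lower in mTR WT by small amounts. Of 24 measured p53 targets 8 lay above 0 (median −0.0336), and none reached an unadjusted p under 0.05. Among them Perp, a desmosome protein gene, differed by 0.25 (SE 0.119) and the stress sensor gene Sesn1 by 0.35 (SE 0.198). Of 27 genes of DNA break signalling and repair 13 lay above 0 (median −0.0104). Of 34 proliferation genes 28 lay below 0, with a median of −0.0782 (−0.132 without mTERT WT 1 and −0.0150 without mTERT WT 3). Groups did not overlap for 6 on the lower side (2.73% of all genes) and for 1 on the higher side (3.45% of all genes). By limma, 1 reached an unadjusted p under 0.05 in each direction. Ccnd1 differed by −0.63 (SE 0.213) and Mcm6 by −0.50 (SE 0.255), both without overlap. Of the 34, 11, such as Mki67, were at or below background in all 6 WT livers. The circadian clock gave 11 of 21 above 0 (median 0.0174), with the clock activator Arntl at 0.26 (SE 0.135) and the repressor Cry1 at 0.44 (SE 0.261).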

How the data were processed

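Total RNA of 12 mouse livers was hybridised to 12 one-colour Affymetrix arrays, 6 of them compared here. The values are log2 intensities as deposited by the authors; GCOS 1.4, PLIER and Affymetrix Expression Console are listed, with no role, in the submitters' processing notes. No source gives the log base, which was read as 2 from the range of 2.62 to 13.83, and the normalization and any added constant stay unknown. The columns are single arrays, so no direction had to be settled. Of 28853 probe sets (probes), 21789 had 1 gene symbol, 1621 several and 5443 none, and 21698 matched the RefSeq table of GRCm38.p6. Gene lists use 1 probe per gene, that of highest mean intensity, which gave 19938 genes.

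limma 3.58.1 under R 4.3.3 fitted 4 group means over 12 arrays (lmFit and eBayes), with two-sided tests and adjustment by Benjamini-Hochberg across the 20197 probes whose mean reached the 30th percentile (log2 3.898), and was tested on simulated data. Lists are described by counts and medians over all measured members, unfiltered. Named by rule were Tert, Terc, Nnt, the 10 genes of smallest p and the 8 of largest difference in each direction among non-overlapping genes above background, and list members of smallest p; olfactory, vomeronasal and predicted genes are not named. Irf1, Psmb8, Psmb9, Gbp3, Lcn2, H2-Ab1, Gsto1, Gstk1, Gsta4 and Thrsp among list members, and the neighbours Tppp, H2bc21 and Acp6, were named after their values were seen. The members and lists were chosen with earlier results of these data known.

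The replicate number was checked as a pairing of the WT groups: with group means removed, same-numbered arrays correlated at 0.629, 0.517 and 0.429, and differently numbered ones at −0.516 to 0.124. It was used as a replicate block in alternative fits. Other alternatives were normalization, filter, eBayes settings, weights, arrays left out, and list means as covariates. Promoters are the 250 bases before a RefSeq start. For arrays, their number limits the precision, and nothing in the labels beyond the set of littermates says how the animals were housed or dissected.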

Additional observations from a re-analysis of the deposited data

Results flagged for a closer look

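The olfactory receptor genes, 1027 measured and used as the unexpressed reference, had a median log2 difference of −0.0194 between mTR WT and mTERT WT and of 0.0558 between mTR KO and mTERT KO. Their list mean was lower in mTR WT in each of the 3 sets (−0.0263, −0.00768 and −0.0254) and higher in mTR KO in each (0.0699, 0.0817 and 0.00997). The opposite signs in the WT and KO livers drew attention to it, and the difference between them was not tested.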

How the results depend on the processing

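No probe passed at an adjusted p under 0.05 in any setting run except one: leaving out 1 array at a time gave 0 to 42 calls, with the 42 without mTERT WT 2. In that fit Mybpc1 (−1.85), Myh4 (−2.82), Myoz1 (−1.03) and Ryr1 (−0.93) were among the calls. The set number as a replicate block over 12 arrays left 0 calls, as over the 6 WT arrays, where 1204 probes reached an unadjusted p under 0.05 and the smallest adjusted p was 0.804. Those counts differ from the 525 of the fit without the block. With muscle and pancreas list means as covariates, Cyp4a31 (−0.45), Tert (−0.13) and Nnt (−0.26) turned sign. The muscle median was 0.0213 there and Myh4 stood at 0.13. Since the muscle covariate is the mean of that list, Myh4 included, values near 0 follow from its construction and are no result. Without mTERT WT 1 and 3, a setting chosen after seeing the data, the median was 0.375 for glutathione S-transferases, 0.0453 for muscle and −3.67 for pancreas. Nnt, near 0, also turned to −0.01 under quantile normalization, −0.05 with array weights, −0.13 without set 1 or its WT arrays, −0.11 without mTERT WT 1 (the range with 1 array left out was −0.11 to 0.09), and −0.10 without mTERT WT 1 and 3. The causes were not tested. Median scaling shifted all probes little, with a median difference of 0.0123 as deposited, 0.00895 after quantile normalization and 0.0208 after centring; at an unadjusted p under 0.05 the quantile-normalized values gave 269 probes higher and 254 lower, and the centred values 296 and 209. With 3 arrays a group and a median SE of 0.14, small differences were not detectable.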

Other observations

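In set 3 the WT and KO littermates of the mTERT line shared several levels. Marco read 6.56 in mTERT WT 3 and 6.52 in mTERT KO 3, whereas the other 10 arrays gave 4.21 to 5.30. The mean of the Kupffer cell and macrophage list was 7.37 and 7.32 in these arrays and 6.64 to 7.15 in the others. Heat shock genes, which encode chaperones, averaged 7.90 and 7.84 there and 8.14 to 8.47 elsewhere. Proliferation genes averaged 4.78 and 4.90, against 4.50 to 4.64 in the others. The interferon-response list was highest in the same litter, at 7.43 in the WT and 6.70 in the KO mouse, against 6.32 to 6.47 elsewhere. These values were chosen after they were seen and were not tested.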
